A study of Mus musculus with 32 samples.

Results

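The 9 genes described here encode subunits of the ion channels that turn glucose metabolism into calcium entry in β cells: Abcc8 and Kcnj11 of the ATP-sensitive potassium (KATP) channel, Cacna1a, Cacna1c, Cacna1d, Cacnb2, Cacnb3 and Cacna2d1 of the voltage-gated calcium channels, and Kcnma1 of the large-conductance (BK) potassium channel. They were listed by name and function, with earlier results of these data known. All 9 were among the 21945 genes of the RNA table and the 21927 genes of the ribosome-protected fragment (RPF) table. RPFs are the stretches of mRNA shielded by a ribosome, and they report how many ribosomes sit on the coding sequence of a gene. All 9 genes had enough RNA counts to be tested, among 12365 genes in all, and 8 had enough RPF counts, among 8709 genes. Cacnb3, with 0 to 33 RPF counts per library, was the one left untested in RPFs.

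In β cells, KATP channels hold the membrane at rest until ATP from glucose metabolism closes them, the membrane depolarizes, voltage-gated calcium channels open, and the calcium that enters triggers exocytosis of insulin granules. The KATP channel is built from Kir6.2 (Kcnj11), which forms the pore, and SUR1 (Abcc8), which senses nucleotides and binds sulfonylurea drugs. Each calcium channel has one pore-forming α1 subunit (Cacna1c and Cacna1d for the L-type channels Cav1.2 and Cav1.3, Cacna1a for the P/Q-type channel Cav2.1) joined by a cytosolic β subunit (Cacnb2, Cacnb3) and an α2δ subunit (Cacna2d1) that both help the pore reach the cell surface. The BK channel, whose pore is encoded by Kcnma1, opens on depolarization and on calcium and helps to end action potentials.

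The cells were MIN6, a mouse insulinoma line labelled wildtype, kept for 24 hours in medium with 25 mM glucose or with 5.5 mM glucose. All cultures were treated with 100 µg/ml cycloheximide, which freezes ribosomes on mRNA, for 5 minutes. Each concentration had 8 samples labelled as biological replicates, made into libraries in 2 batches (numbers 1 to 4 and 5 to 8), and each gave 1 RPF library and 1 polyadenylated RNA library, 32 libraries in all. The line is usually grown in 25 mM glucose, so that 5.5 mM is the change of medium for these cells, and it is a tumor line and not islet tissue. The comparisons ask whether the channel genes differed between the 2 concentrations in RNA, in RPFs and in translational efficiency (TE, RPFs relative to RNA).

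All 10 β cell markers examined, among them Ins1, Ins2 and Pdx1, had a median of at least 1 CPM (counts scaled to a common library total) in both library types, while 14 of 19 markers of other cells stayed under it in each (Gcg, Sst, Ppy and Krt19 were among those that did not, in both). The RNA libraries at 25 mM held 16423766 to 33623502 counts. At 5.5 mM only numbers 1, 3 and 5 were of similar depth (13795978 to 17542565 counts), while numbers 2, 4, 6, 7 and 8 held 3014785 to 6907849 counts, with 0.159% to 1.09% of counts from Ins1 and Ins2, against 3.98% to 6.51% at 25 mM and 4.40% to 8.08% in the 3 deeper libraries. In these 5 libraries the summed level of the β cell markers was 10942 to 18260 CPM, against 56452 to 98518 CPM in the other 3 and 62889 to 89977 CPM at 25 mM. Ins1, Ins2 and Iapp have the highest levels of that list, and not all of its members moved this way: Nkx6-1 and Neurod1, transcription factors of β cells, had at most 428 and 608 RNA CPM at 25 mM, against up to 6195 and 3713 CPM at 5.5 mM. Markers of other cells summed to between 227 and 366 CPM in RNA at 25 mM, against 62.9 and 194 CPM at 5.5 mM. In RPFs their sums lay between 205 and 497 CPM at 25 mM, against 150 and 271 CPM at 5.5 mM. Levels of the channel genes and related genes below are instead CPM after trimmed-mean (TMM) scaling. In RNA its factors, by which CPM are divided, were 0.429 to 0.660 in the 5 libraries of low depth. They were 1.29 to 1.46 at 25 mM and 1.10 to 1.49 in the 3 deeper libraries. CPM of markers and of channel genes are therefore on different scales. RPF libraries held 363569 to 3283379 counts at 25 mM and 392529 to 7012999 at 5.5 mM. The RPF library labelled 25 mM, number 8, was closer to the 5.5 mM libraries of its batch (median r = 0.931 across 9772 genes) than to its own group (0.886). The RPF library labelled 5.5 mM, number 3, was near both groups (0.956 with 25 mM and 0.955 with 5.5 mM). In RNA, the 3 deeper libraries labelled 5.5 mM were closer to the 25 mM libraries of their batch than to the 5.5 mM libraries, most of which were shallow. Their median r, across 12537 genes, was 0.909 with 25 mM and 0.755 with 5.5 mM for number 1, 0.984 and 0.701 for number 3, and 0.849 and 0.806 for number 5. Whether any library carries a wrong label was not tested. The RNA and TE results of the channel genes are therefore given also without the 5 shallow RNA libraries, and for TE without the RPF library of number 8 at 25 mM as well, and at 5.5 mM those values rest on the RNA of numbers 1, 3 and 5. In whole-culture RNA, fewer cells of a type and less RNA per cell cannot be told apart.

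In RPFs, 2 of the 8 channel genes tested were lower at 25 mM glucose and none was higher (0 also at an unadjusted p under 0.05 and by DESeq2). These were Cacna2d1, the α2δ subunit, and Cacna1c, the Cav1.2 pore, with fitted changes of -33.7% and -32.4%. The remaining 6, both KATP subunits among them, did not pass the test. By edgeR's quasi-likelihood test at an adjusted p under 0.1, 15.4% of all genes tested in RPFs were lower and 15.5% were higher, so that the 2 of 8 are not far from the background. No channel gene had its 8 values at 25 mM all on one side of the 8 values at 5.5 mM, which held for 0.264% of all genes below and 0.574% above.

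**Figure D1:**
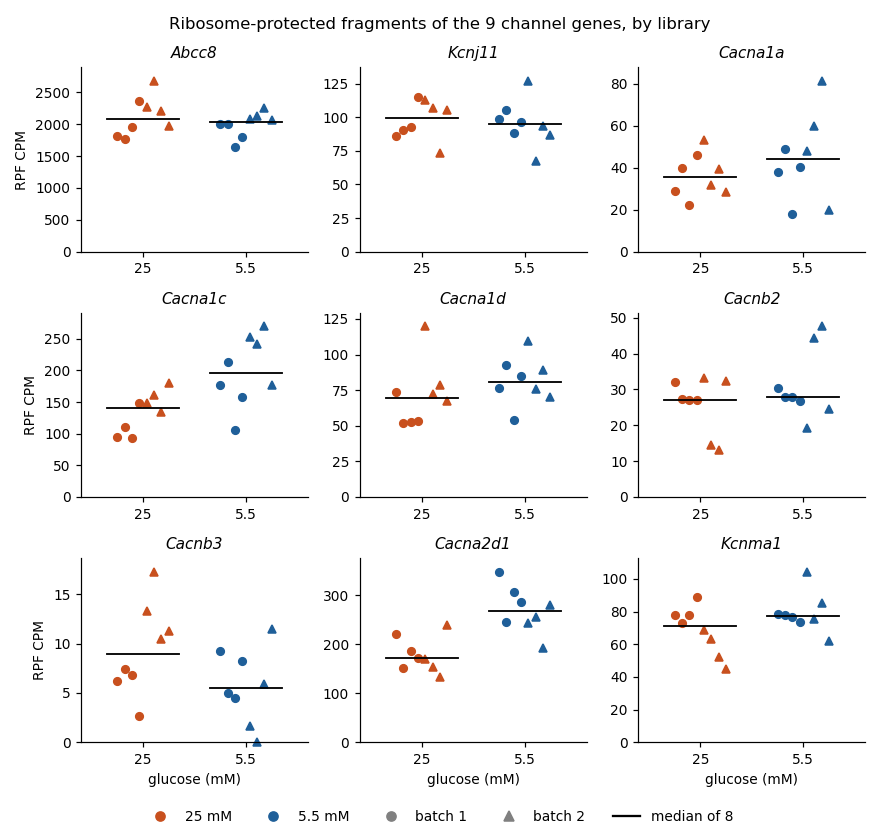
Levels of ribosome-protected fragments (CPM, vertical axes from 0, one scale per gene) of the 9 channel genes in each RPF library at 25 mM (orange, left) and 5.5 mM glucose (blue, right). Circles are batch 1, triangles batch 2 and lines medians of 8. For Cacna2d1, 6 of the 8 points at 25 mM lie below all points at 5.5 mM, while the points of Abcc8 and Kcnj11 overlap.

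Cacna2d1 (ENSMUSG00000040118, chr5:15934264-16374511, GRCm38.p6) had 134, 171 and 238 RPF CPM in the lowest, median and highest library at 25 mM, against 192, 267 and 348 at 5.5 mM. Of the 8 libraries at 25 mM, 6 lay below every library at 5.5 mM, and the highest was the library labelled number 8. The fitted log2 fold change was -0.59 (SE 0.12, adjusted p = 0.000513). It was -0.68 in batch 1 (adjusted p = 0.00476) and -0.45 in batch 2, where it did not pass (adjusted p = 0.175), and -0.68 without number 8, where 17% of all genes were lower. The library depth differed between the batches, with 1235662 to 7012999 RPF counts in batch 1 and 363569 to 732164 in batch 2.

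Cacna1c (ENSMUSG00000051331, chr6:118587240-119197384) had 93.3, 141 and 181 RPF CPM in the lowest, median and highest library at 25 mM, against 106, 195 and 270 at 5.5 mM. The groups overlapped more than those of Cacna2d1, with 2 libraries at 25 mM below all of those at 5.5 mM. The log2 fold change was -0.56 (SE 0.13, adjusted p = 0.00252). Both batches gave a call at nearly the same size (-0.53 with adjusted p = 0.0707, and -0.57 with adjusted p = 0.0588). Without the 5 cultures whose RNA libraries were shallow, both genes also passed the RPF test, Cacna1c at -0.46 (adjusted p = 0.0977) and Cacna2d1 at -0.72 (adjusted p = 0.00935), in a comparison where 4.75% of all genes were lower and 6.27% higher.

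The promoters of these 2 genes are shown because theirs were the RPF levels that fell. Of the 9 channel genes, 6 matched the RefSeq promoter table (GRCm38.p6), with 11 start sites in all. Each sequence is the 250 bases before a start site, 5′ to 3′ on the strand of the gene. Capitals mark matches on either strand to a GC box (GGGCGG), which can overlap each other in a repeated run. The E box CACGTG, the TATA box TATAAA, the cAMP response element TGACGTCA and the CCAAT box CCAAT were searched in the same way and had no match in these 2 windows.
Cacna2d1, chr5:15934441-15934690, plus strand: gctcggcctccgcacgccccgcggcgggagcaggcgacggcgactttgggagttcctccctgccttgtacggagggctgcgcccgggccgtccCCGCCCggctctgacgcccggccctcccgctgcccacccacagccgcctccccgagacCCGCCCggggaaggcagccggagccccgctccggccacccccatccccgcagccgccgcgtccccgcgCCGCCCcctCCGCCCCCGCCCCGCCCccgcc
Cacna1c, chr6:119108496-119108745, minus strand: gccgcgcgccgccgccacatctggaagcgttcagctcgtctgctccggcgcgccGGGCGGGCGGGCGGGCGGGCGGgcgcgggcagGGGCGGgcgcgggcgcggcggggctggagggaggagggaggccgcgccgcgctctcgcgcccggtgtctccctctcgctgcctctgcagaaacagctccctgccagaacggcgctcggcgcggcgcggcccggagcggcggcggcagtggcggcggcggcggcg
Each window held 6 GC boxes, and 82.4% (Cacna2d1) and 82.8% (Cacna1c) of its bases were G or C, against a median of 52.4% over 32851 promoter windows of the same length. At least 1 GC box was found in 32.7% of all windows and in 6 of the 11 of the channel genes, while the other motifs were in 6% (E box), 12.4% (TATA box), 1.5% (cAMP response element) and 33.8% (CCAAT box) of all windows. Cacna1c has 3 start sites in the table, and the other 2 windows, with 50.4% and 51.6% G or C, held no GC box. Channel genes not called or not tested in RPFs also had windows rich in G or C. These were Cacna1d (86.4%, 5 GC boxes), Kcnma1 (79.2%, 3), Cacnb2 (73.2%, 1) and Cacnb3 (70.4%, 3). A further window each of Cacna1d (39.6%), Cacnb2 (46%) and Cacnb3 (56%) held no GC box. These matches describe the sequence and were not measured as binding.

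Cacna1d, the Cav1.3 pore (ENSMUSG00000015968, chr14:30039941-30491156), had 51.8, 69.8 and 120 RPF CPM in the lowest, median and highest library at 25 mM, against 54.4, 80.7 and 109 at 5.5 mM. The ranges covered each other, and the highest value of all was number 5 at 25 mM. The log2 fold change of -0.25 (SE 0.14, adjusted p = 0.203) did not pass. It passed when number 5 at 25 mM (-0.33, adjusted p = 0.0743) or number 3 at 5.5 mM (-0.33, adjusted p = 0.0732) was left out. Cacna1a, the Cav2.1 pore (ENSMUSG00000034656, chr8:84338631-84640251), had 22.2, 35.5 and 53.2 CPM at 25 mM, against 17.7, 44.2 and 81.3 CPM at 5.5 mM, from 11 to 129 counts per library. Its log2 fold change was -0.19 with a 95% interval of -0.67 to 0.29, which includes the value of Cacna1c.

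Of the β subunits, Cacnb2 (ENSMUSG00000057914, chr2:14603861-14988811) had 13.1, 27.2 and 33.3 RPF CPM at 25 mM, against 19.3, 27.9 and 47.6 at 5.5 mM, and its log2 fold change was -0.11 (SE 0.17, adjusted p = 0.701). Cacnb3 (ENSMUSG00000003352, chr15:98628436-98644536) had 2.62, 8.97 and 17.3 CPM at 25 mM, against 0, 5.46 and 11.5 CPM at 5.5 mM. Its 4 values at 25 mM in batch 2 (10.5 to 17.3 CPM) rested on 4 to 8 counts each, and a difference was not detectable at this depth. Of the 4 other voltage-gated calcium channel subunits that could be tested in RPFs, of 21 listed, 0 passed in either direction by edgeR's test, 0 had an unadjusted p under 0.05, 0 passed by DESeq2, and their median log2 fold change was -0.11.

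Neither KATP subunit passed the test in RPFs. Abcc8 (ENSMUSG00000040136, chr7:46104523-46180039) had 1768, 2087 and 2675 RPF CPM at 25 mM, against 1648, 2031 and 2248 CPM at 5.5 mM, with a log2 fold change of 0.09 and a 95% interval of -0.10 to 0.28. Kcnj11 (ENSMUSG00000096146, chr7:46097123-46100952), which lies 3.57 kb from Abcc8, had 73.4, 99.4 and 115 CPM at 25 mM, against 67.7, 94.7 and 127 CPM at 5.5 mM. Its log2 fold change was 0.01 with an interval of -0.21 to 0.24. Expressed as a change in level, the intervals run from -6.49% to 21.5% for Abcc8 and from -13.8% to 18.1% for Kcnj11, so that neither subunit is shown to be the same in both media. Abcc9 and Kcnj8, which take these places in the KATP channels of muscle and vessels, had RPF medians of 0 CPM in both media and were not tested.

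Kcnma1, the BK pore (ENSMUSG00000063142, chr14:23292288-24005110), had 45.1, 70.9 and 89.1 RPF CPM at 25 mM, against 62.2, 77.2 and 104 CPM at 5.5 mM. Its log2 fold change was -0.16 (SE 0.12, adjusted p = 0.368). In batch 1 the means were 79.6 CPM at 25 mM and 76.7 CPM at 5.5 mM, while in batch 2 they were 57.4 and 81.8 CPM. Its auxiliary subunit Kcnmb2, which makes BK channels inactivate, was the 1 member of the BK auxiliary list of 8 with enough fragments to be tested, and it was lower, with medians of 11.1 CPM at 25 mM and 17.9 CPM at 5.5 mM (log2 fold change -0.70, SE 0.17, adjusted p = 0.00287). It was also lower without the 5 shallow cultures (-0.67, adjusted p = 0.0713).

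RNA gave another picture for the L-type pores. With all libraries, Cacna1d and Cacna1c were lower at 25 mM and the other 7 channel genes did not pass, at an adjusted p under 0.01. Over all genes tested in RNA, 24.2% were lower and 16.4% higher at this threshold. No channel gene had its RNA values at 25 mM all on one side of those at 5.5 mM, which held for 5.18% of all genes below and 9.59% above. Cacna1d had 33.8, 37.3 and 43.6 RNA CPM in the lowest, median and highest library at 25 mM, against 34.4, 505 and 1479 CPM at 5.5 mM, and the log2 fold change was -3.75 (SE 0.68, adjusted p = 0.000282). Cacna1c had 26.1, 30.5 and 36.9 CPM at 25 mM, against 15.3, 269 and 1068 CPM at 5.5 mM, and the log2 fold change was -3.33 (SE 0.75, adjusted p = 0.00144).

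Those differences lay between the 5 shallow RNA libraries at 5.5 mM and all the others. Cacna1c had 124 to 1068 CPM in them, against 20.3, 38.4 and 15.3 CPM in numbers 1, 3 and 5, the deeper libraries at 5.5 mM. Cacna1d had 342 to 1479 CPM in the shallow libraries and 34.4, 47.1 and 84.3 CPM in the deeper ones. Without the 5 libraries neither gene passed, and the direction of Cacna1c turned: its log2 fold change was 0.46 (adjusted p = 0.0601) and that of Cacna1d was -0.53 (adjusted p = 0.0409). The insulin share and depth of the libraries moved with these values, and their part in the result was not tested.

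**Figure D2:**
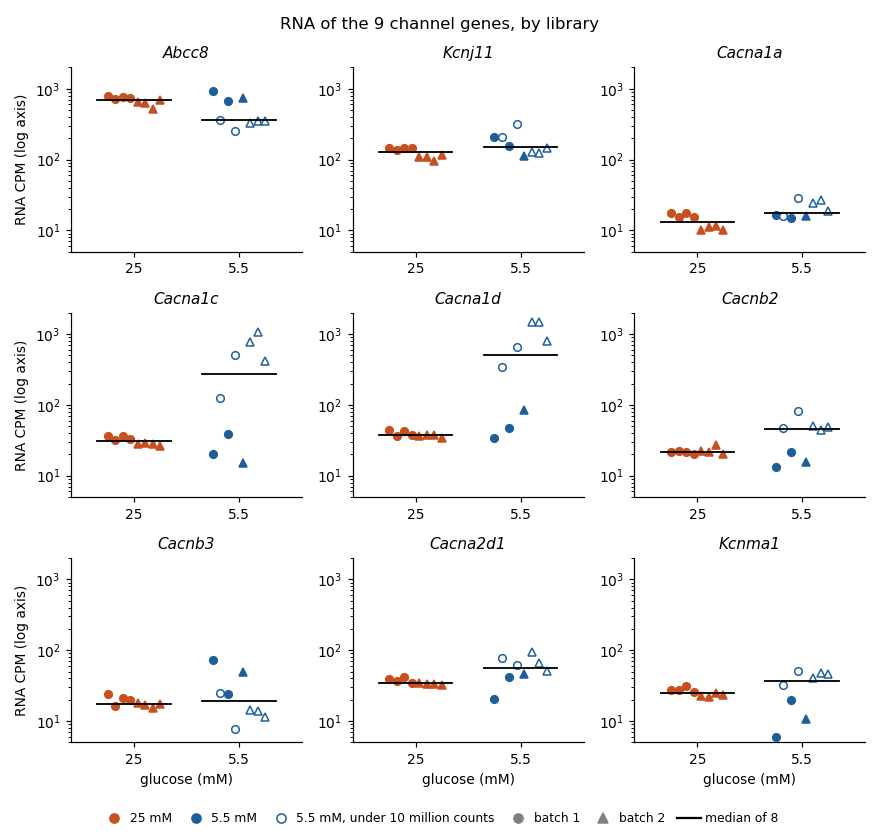
RNA levels (CPM, log axes) of the 9 channel genes in each RNA library at 25 mM (orange, left) and 5.5 mM glucose (blue, right), with circles for batch 1, triangles for batch 2 and lines for medians of 8. Open symbols are the 5 shallow libraries at 5.5 mM, which for Cacna1c (124 to 1068 CPM) and Cacna1d (342 to 1479 CPM) lie far above the 3 filled ones.

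For Abcc8 the shallow libraries also stood to one side, while for Kcnj11 they did not. Abcc8 had 513, 703 and 788 RNA CPM at 25 mM, against 255, 358 and 923 CPM at 5.5 mM, where all 5 shallow libraries (255 to 361 CPM) fell below the lowest library at 25 mM and the 3 deeper ones (681 to 923 CPM) did not. Kcnj11 had 94.2, 128 and 146 CPM at 25 mM, against 113, 149 and 315 CPM at 5.5 mM. Its shallow libraries (124 to 315 CPM) overlapped the deeper ones (113 to 210 CPM). Neither KATP subunit passed edgeR's test with all libraries (log2 fold changes of 0.46 and -0.44) or without the 5 (-0.15 and -0.24).

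Cacna2d1 RNA was 32.6, 34.5 and 41.4 CPM at 25 mM, against 20.5, 56.6 and 95.5 CPM at 5.5 mM (log2 fold change -0.67, adjusted p = 0.0259). Without the 5 libraries it was -0.02, with a 95% interval of -0.46 to 0.42. Its RPF level was lower at 25 mM while no difference in its RNA was detected among the deeper libraries. Cacna1a RNA was 10.1, 13.3 and 17.5 CPM at 25 mM, against 14.7, 17.8 and 28.5 CPM at 5.5 mM, and Cacnb2 RNA was 20.0, 21.6 and 27.0 CPM, against 13.1, 45.9 and 82.3 CPM. Neither passed edgeR's test in either set of libraries. By DESeq2's Wald test on all libraries, however, Kcnj11 (-0.56), Cacna1a (-0.70), Cacnb2 (-1.01) and Cacna2d1 (-0.79) were called lower too (adjusted p = 0.00192 to 0.00516), where it called 3881 of the 12365 genes lower and 2787 higher. Leaving out a single deeper library at 5.5 mM gave a call for Cacna2d1 (without number 1, -0.81), Cacnb2 (without number 1, -0.99, or number 5, -1.02) and Cacna1a (without number 3, -0.67).

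The signs of the smaller RNA changes also depended on scaling. With trimmed-mean scaling the median log2 fold change of all genes was 0.12, and with scaling to library size alone it was 0.82. Under the second, Kcnj11 (0.44), Cacna1a (0.31), Cacnb2 (0.26), Cacna2d1 (0.30) and Kcnma1 (0.82) had positive values, none called, and Cacna1d remained the 1 channel gene called lower. The larger changes shrank as well. By edgeR's test Cacna1d was -2.40 (adjusted p = 0.00124), and Cacna1c was -1.95 and no longer called (adjusted p = 0.0111).

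Cacnb3 and Kcnma1 passed only once the 5 libraries were left out, where 19.2% of all genes were lower and 10.4% higher. Cacnb3 RNA was 15.3, 17.6 and 23.7 CPM at 25 mM, against 24.0, 49.1 and 71.7 CPM in the 3 deeper libraries at 5.5 mM (log2 fold change -1.35, SE 0.24, adjusted p = 0.00136). All 3 lay above the highest at 25 mM, the lowest of them, number 3, only just. Kcnma1 RNA was 21.6, 24.9 and 30.9 CPM at 25 mM, against 6.01, 10.6 and 19.8 CPM in the deeper libraries, all below the lowest at 25 mM (log2 fold change 1.11, SE 0.27, adjusted p = 0.0066). In the shallow libraries the values after trimmed-mean scaling were 7.78 to 24.7 CPM for Cacnb3 and 32.6 to 51.5 CPM for Kcnma1, on the other side of the 25 mM levels for most of them, and with all libraries the fitted values were -0.56 and -0.29. For Kcnma1 that side depends on the scaling: scaled to library size alone, its fitted value with all libraries was 0.82, not called. With 3 libraries left at 5.5 mM, these 2 calls rest on few samples.

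**Figure D3:**
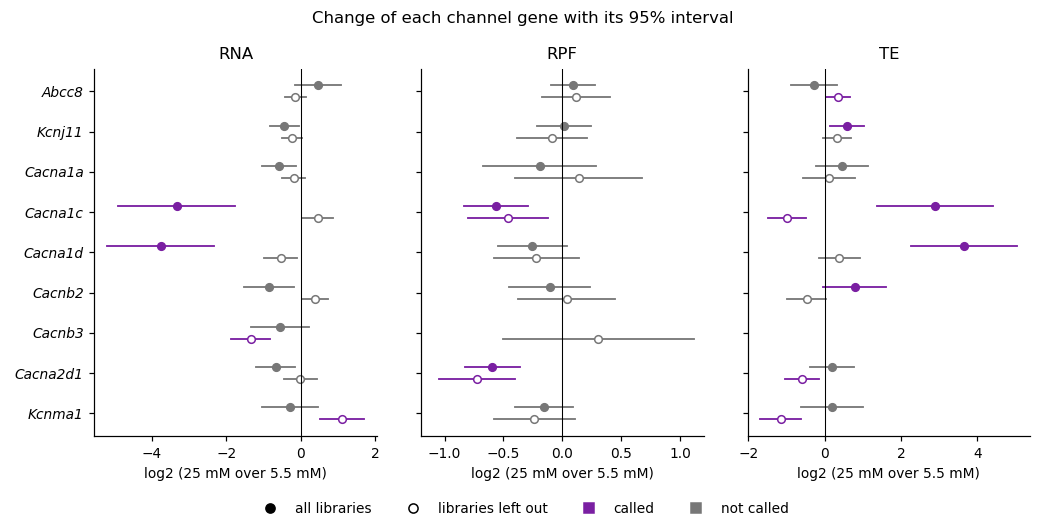
Log2 fold change (25 mM over 5.5 mM, horizontal axes) of each channel gene in RNA, RPFs and TE, with 95% intervals. Filled symbols are fits on all libraries, open symbols fits without the 5 shallow RNA libraries (RNA), their cultures (RPF) or those 5 and the RPF library labelled 25 mM, number 8 (TE), and purple marks calls. The RPF values of Cacna1c (-0.56 and -0.46) and Cacna2d1 (-0.59 and -0.72) stay below 0, while the TE value of Cacna1c is 2.90 with all libraries and -0.99 without those left out.

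TE follows from both library types, and its calls turned with the same libraries. With all libraries, 4 of the 8 channel genes tested were higher at 25 mM: Cacna1d (log2 fold change 3.66, SE 0.68, adjusted p = 9.17e-05), Cacna1c (2.90, SE 0.75, adjusted p = 0.00225), Kcnj11 (0.59, SE 0.22, adjusted p = 0.0242) and Cacnb2 (0.79, SE 0.40, adjusted p = 0.0998). Scaled to library size alone, which moved the median TE change of all genes to -0.91 from -0.10, Kcnj11 (-0.43) and Cacnb2 (-0.50) turned and did not pass. Cacnb2 also did not pass in 10 of the 16 fits with 1 culture left out (0.47 to 0.94 over all 16). None of the 8 was lower with trimmed-mean scaling (0 also at an unadjusted p under 0.05 and by DESeq2), while 31.2% of all 8637 genes tested were higher and 28.6% lower. Log2 TE of Cacna1c was 1.33, 2.18 and 2.77 in the lowest, median and highest culture at 25 mM, against -1.98, -0.22 and 4.00 at 5.5 mM. That of Cacna1d was 0.30, 0.85 and 1.73 at 25 mM, against -4.27, -2.42 and 1.14 at 5.5 mM.

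Without the 6 libraries, 1 channel gene was higher and 3 were lower, where 27.4% and 26.3% of all genes were. Abcc8 was higher (log2 fold change 0.35, adjusted p = 0.0611), and Kcnma1 (-1.15, adjusted p = 0.0016), Cacna1c (-0.99, adjusted p = 0.00262) and Cacna2d1 (-0.60, adjusted p = 0.0277) were lower. Cacna1c was the gene called in both sets, in opposite directions. Kcnj11 (0.32) and Cacna1d (0.39) kept their sign and did not pass, and Cacnb2 was -0.47.

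Ratios of partner genes within a library do not depend on how libraries are scaled to each other. The log2 ratio of Abcc8 over Kcnj11 counts in RPFs was 4.43 ± 0.22 at 25 mM and 4.39 ± 0.29 at 5.5 mM (SD, n = 8 each, p = 0.741, two-sided exact permutation test, adjusted p = 0.741 over 6 ratios). In RNA it was 2.47 ± 0.08 at 25 mM and 1.45 ± 0.93 at 5.5 mM (p = 0.00389, exact permutation test, adjusted p = 0.0117). The 5 shallow libraries had ratios of -0.30 to 1.50 and the 3 deeper ones 2.14 to 2.72, around the narrow range at 25 mM. Without the shallow libraries the adjusted p of the exact permutation test was 0.364.

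The log2 ratio of Cacna1d over Cacna1c, the Cav1.3 and Cav1.2 pores, was -0.92 ± 0.44 at 25 mM and -1.25 ± 0.27 at 5.5 mM in RPFs (SD, n = 8 each, exact permutation p = 0.0934, adjusted p = 0.143). In RNA it was 0.29 ± 0.10 at 25 mM and 0.97 ± 0.71 at 5.5 mM (exact permutation p = 0.00218, adjusted p = 0.0117). The direction in RNA was the same in the deeper libraries (mean 1.17 at 5.5 mM, from 0.29 to 2.46), where the test no longer passed (exact permutation, adjusted p = 0.121). The ratio of the β subunits, Cacnb3 over Cacnb2, passed in neither library type (adjusted p = 0.658 in RNA and 0.143 in RPFs, exact permutation tests). Neither the RNA ratio of Abcc8 over Kcnj11 nor that of Cacna1d over Cacna1c passed within a single batch. There 4 libraries against 4 allow an exact permutation p of 0.0286 at the smallest, and a single ratio at that p cannot pass after adjustment over 6. Cacna1d over Cacna1c reached it in both batches (adjusted p = 0.0857 and 0.171), and Abcc8 over Kcnj11 in batch 1 (adjusted p = 0.0857).

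**Figure D4:**
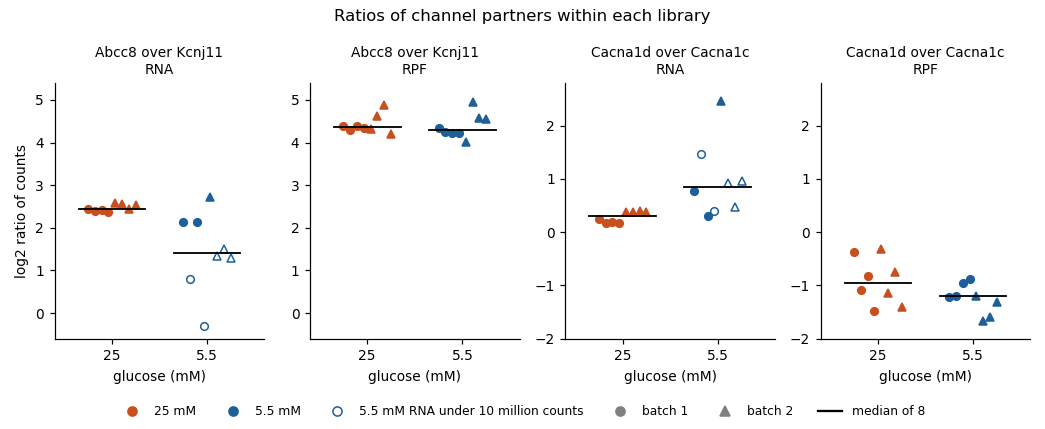
Log2 ratio of counts (vertical axes) of Abcc8 over Kcnj11 and of Cacna1d over Cacna1c in each RNA and RPF library at 25 mM (left in each panel) and 5.5 mM glucose (right), with circles for batch 1, triangles for batch 2 and lines for medians of 8. Open symbols are the 5 shallow RNA libraries, whose Abcc8 over Kcnj11 ratios of -0.30 to 1.50 lie below all the others.

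The channel genes sit among other genes of membrane excitability and ion handling, of which 199 in 8 lists were examined. In RPFs 64 of them were tested, 12 (18.8%) were higher and 14 (21.9%) lower at 25 mM, against 15.5% and 15.4% of all genes, and their median log2 fold change was -0.06, against -0.01 over all genes. Without the 5 shallow cultures, 5 of 70 (7.14%) were higher and 6 (8.57%) lower, against 6.27% and 4.75% of all genes. In RNA 16 of 118 (13.6%) were higher and 39 (33.1%) lower, against 16.4% and 24.2% of all genes (median -0.41, against 0.12 over all genes). Without the 5 libraries 16 of 129 (12.4%) were higher and 33 (25.6%) lower, against 10.4% and 19.2%. Their median was then 0.04, against -0.003 over all genes, so the lower median was not seen in this set of libraries. The lists are described by these counts, which were not tested against the background.

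**Figure D5:**
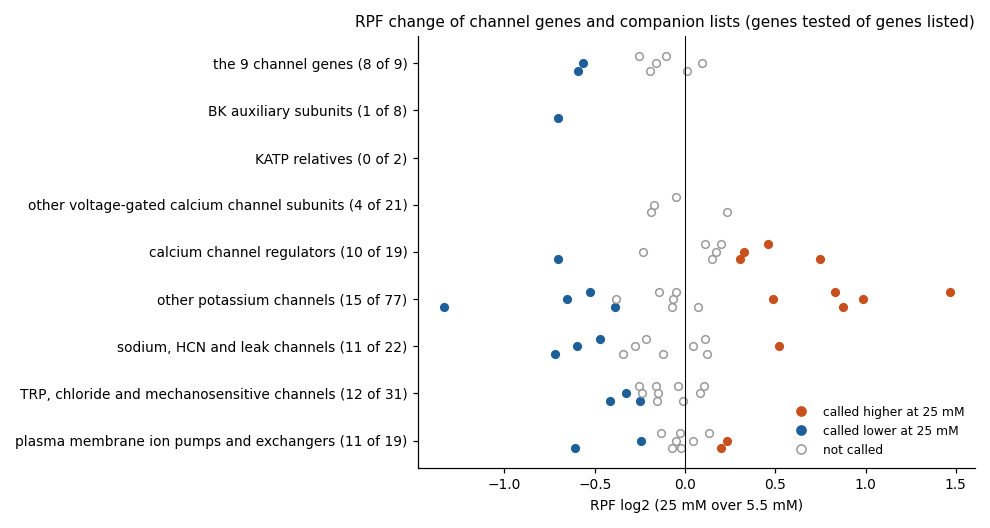
RPF log2 fold change (25 mM over 5.5 mM, horizontal axis) of the channel genes and of 8 lists of related genes, with the number tested of the number listed beside each name. Filled symbols passed the test (orange higher, blue lower at 25 mM). The potassium channels spread most widely, from -1.34 (Kcnc2) to 1.47 (Kcnh1).

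Among 15 of 77 other potassium channels tested in RPFs, 5 were higher and 4 lower, where 15.5% and 15.4% of all genes were. Kcnh1, a voltage-gated channel of the ether-a-go-go family, had medians of 50.4 CPM at 25 mM and 16.6 CPM at 5.5 mM (log2 fold change 1.47, SE 0.19, adjusted p = 8.64e-06), and its RNA was higher too (1.81, and 2.43 without the 5 libraries, both called). The tandem-pore channels Kcnk1 (0.99) and Kcnk16, the islet channel TALK-1 (0.83), were higher, and the Kv3 channel Kcnc2 was lower (-1.34). All 4 also passed without the shallow cultures (1.46, 1.03, 0.59 and -1.40). In RNA 7 of 37 were higher and 9 lower, where 16.4% and 24.2% of all genes were, and Kcna2 (-2.47), Kcnd1 (-1.51) and Kcnb2 (-3.02), all voltage-gated, were lower also without the 5 libraries (-1.30, -1.17 and -1.02).

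Among 10 of 19 regulators of calcium channels tested in RPFs, 4 were higher and 1 was lower, against 15.5% and 15.4% of all genes. Calm3, which encodes calmodulin, the protein that binds the pore and mediates its calcium-dependent inactivation, was higher (0.30), as was Rimbp2, a scaffold that tethers calcium channels at release sites (0.33). The ubiquitin ligase Nedd4l was lower (-0.71, adjusted p = 0.000301), with medians of 79.0 CPM at 25 mM and 129 CPM at 5.5 mM. Without the shallow cultures Nedd4l passed (-0.75), while Calm3 and Rimbp2 did not. In RNA 2 of 15 were higher and 5 lower, against 16.4% and 24.2% of all genes: Gem, a small GTPase that inhibits calcium channels, was higher (2.19, and 1.65 without the 5 libraries), the ligase Wwp1 was higher (1.00) and no longer passed without them, and Akap7 (-4.75), an anchor of protein kinase A, and Cabp1 (-1.68), a calmodulin relative, were lower in both (-1.49 and -1.60 without the 5).

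Of the calcium channel subunits outside the 9, 5 of 11 tested in RNA were lower, where 24.2% of all genes were, and none higher by edgeR (1 was higher at an unadjusted p under 0.05 and 1 by DESeq2): Cacng4 (-5.19) and Cacng2 (-2.70), of the γ family, Cacna1e (-4.09), the R-type pore, and Cacna1g (-1.14), a T-type pore, are the 4 with the smallest p. Without the 5 libraries Cacng4 (-2.34), Cacna1e (-1.44) and Cacna1g (-1.04) were lower and Cacng2 (-1.06) did not pass. The BK auxiliary genes differed between library types. Kcnmb2 RNA was higher with all libraries (0.98, adjusted p = 0.00502) and did not pass without the 5 (0.42), against its lower RPF level, and its TE was lower in both (-1.56 and -1.10). Kcnmb1 RNA had medians of 0.970 CPM at 25 mM and 83.9 CPM at 5.5 mM (-6.48, and -3.13 without the 5 libraries) with too few RPF counts to test, and Lrrc26 RNA was also lower (-1.03 and -0.97). Lrrc26 levels were very low, with means of 0.705 CPM at 25 mM and 1.42 CPM at 5.5 mM. Its call was lost in 10 of the 16 fits with 1 library left out.

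Of 11 sodium, HCN and leak channel genes tested in RPFs, 1 was higher and 3 lower, against 15.5% and 15.4% of all genes. The sodium leak channel Nalcn (-0.60) and its partner Unc80 (-0.47) were lower, as was the pacemaker channel Hcn4 (-0.72), and the sodium channel pore Scn3a was higher (0.52). Nalcn and Hcn4 also passed without the shallow cultures. In RNA 1 of 15 was higher and 7 lower (16.4% and 24.2% of all genes), among them Hcn4 (-1.67), the sodium channel pores Scn8a (-2.58) and Scn2a (-2.49) and Fam155a (-2.57), an auxiliary subunit of the leak channel. All 4 were lower as well without the 5 libraries (-0.50, -0.90, -0.86 and -1.36).

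Among 12 TRP, chloride and mechanosensitive channel genes tested in RPFs, none was higher (0 also at an unadjusted p under 0.05 and by DESeq2) and 3 were lower, where 15.4% of all genes were: the calcium-activated cation channel Trpm5 (-0.33) and the endosomal and lysosomal chloride transporters Clcn6 (-0.42) and Clcn7 (-0.25), none of which passed without the shallow cultures. In RNA 4 of 20 were higher and 6 lower, against 16.4% and 24.2% of all genes. Trpv1, the capsaicin receptor, was higher (2.73, and 2.18 without the 5 libraries), and Trpm4 (-2.10), Trpm5 (-2.55) and the volume-regulated anion channel subunit Lrrc8a (-1.35) were lower in both (-1.38, -1.01 and -0.49).

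Of 11 pumps and exchangers tested in RPFs, 2 were higher and 2 lower, close to the 15.5% and 15.4% of all genes, and none passed without the shallow cultures. The plasma membrane calcium pump Atp2b1 (0.20) and the sodium pump subunit Atp1b1 (0.23) were higher, and the sodium-calcium exchangers Slc8a2 (-0.61) and Slc8a1 (-0.25) were lower. In RNA 1 of 16 was higher and 5 lower, against 16.4% and 24.2% of all genes. Atp1b1 was higher (1.65, and 0.94 without the 5 libraries), Slc8b1, the mitochondrial exchanger, was lower in both (-1.15 and -0.88), and the calcium pumps Atp2b1 (-3.65) and Atp2b2 (-3.15) were lower with all libraries, did not pass without the 5 (-1.02 and 0.17), and changed direction there in the case of Atp2b2.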

How the data were processed

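The authors sequenced RPF libraries and polyadenylated RNA libraries of MIN6 cells, processed the reads with the XPRESSyourself pipeline (Ensembl release 102, without rRNA reads and PCR duplicates), and deposited raw counts per gene, taken over the exons, or a trimmed coding sequence, of 1 transcript per protein-coding gene. All 32 columns were mapped to samples by name, and 0 columns were left unused. Ensembl IDs were given symbols from a gene name table (21826 of 21945 in RNA). Here, counts were fitted with edgeR 4.0.16 (filterByExpr, TMM scaling, quasi-likelihood test, batch as covariate, Benjamini-Hochberg over all genes tested), RNA and RPFs apart, while TE was tested in 1 model of all libraries by the term that lets the glucose effect differ between RPFs and RNA. Calls were made at adjusted p under 0.01 (RNA) and 0.1 (RPF, TE), the study's thresholds. Levels are CPM after TMM, except those of the cell markers, which are CPM of the library total. Log2 TE per culture uses a pseudocount of 0.5 CPM. Ratios use counts plus 0.5 and exact two-sided permutation tests (scipy 1.17.1, Benjamini-Hochberg over 6). The fits were tested on simulated counts with known changes. Apart from those changes, all simulated libraries of a type shared the same expression profile, which the shallow RNA libraries here do not. Alternatives were DESeq2 1.42.0, limma 3.58.1, other scalings, no filter, no batch term, a replicate block, single batches, and libraries left out. Total counts limit precision, as given in the report. From each list, up to 4 genes called in RPFs and up to 4 called in RNA with the smallest p are named, and the members of the BK auxiliary and KATP relative lists, except some that are not reported here. The channel genes and lists were chosen with earlier results of these data known. Levels per kb of coding sequence were planned and were not used here, so levels are not compared between genes.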

Additional observations from a re-analysis of the deposited data

Results flagged for a closer look

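Of 66 groups of 8 values (levels, log2 TE and ratios of the channel genes at one glucose concentration), 2 held a sample far from the other 7, where chance alone marks about 1 group in 20. The RPF level of Cacna1d in number 5 at 25 mM was 120 CPM, against 51.8 to 78.6 CPM in the other 7. The RNA level of Cacnb2 in number 7 at 25 mM was 27.0 CPM, against 20.0 to 22.7 CPM in the other 7. The shallow RNA libraries at 5.5 mM are not marked in this way because 5 of 8 lie together.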

How the results depend on the processing

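Cacna2d1 and Cacna1c were called lower in RPFs in every one of the 16 fits with 1 library left out (2 to 3 channel genes called lower, the third being Cacna1d), under the other scalings, without the filter or the batch term, and by DESeq2. In batch 2 alone 1 channel gene was lower, with 197 genes higher and 94 lower in all, and without the 5 shallow cultures 610 and 462. RPF values under which the sign turned, none called, were those of Kcnj11 (-0.0062 in batch 1, -0.087 without the shallow cultures, -0.020 scaled to library size, and -0.028 to 0.071 with 1 library left out), Cacna1a (0.14 without the shallow cultures), Cacnb2 (0.026 in batch 1 and 0.038 without the shallow cultures) and Kcnma1 (0.063 in batch 1).

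In RNA, DESeq2's Wald test called 6 channel genes lower (Kcnj11, Cacna1a, Cacnb2 and Cacna2d1 besides the 2 by edgeR), with 3881 genes lower and 2787 higher, batch 1 alone gave 0 (0 genes of any kind higher and 0 lower, with 3526 at an unadjusted p under 0.05, and DESeq2 was not run within a batch), scaling to library size gave 1 with 1342 genes lower and 2175 higher, and leaving out 1 library gave 2 to 4. Without the 5 shallow libraries 1 was higher and 1 lower, with 1342 genes higher and 2480 lower. Signs turned for Abcc8 (-0.15), Cacna1c (0.46), Cacnb2 (0.38), Kcnma1 (1.11) and Atp2b2 (0.17) without those libraries, for Kcnj11 (0.44), Cacna1a (0.31), Cacnb2 (0.26), Cacna2d1 (0.30) and Kcnma1 (0.82) scaled to library size, and for Kcnma1 (0.036) in batch 1. The cause was not tested.

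In TE, the count of channel genes higher was 0 in batch 1 (829 genes higher and 24 lower), 2 in batch 2, 2 without the filter, 2 scaled to library size (3 lower, with 1147 genes higher and 4208 lower) and 1 without the 6 libraries (3 lower), and 3 to 4 with 1 culture left out. Signs turned for Abcc8 (0.35), Cacna1c (-0.99), Cacnb2 (-0.47), Cacna2d1 (-0.60) and Kcnma1 (-1.15) without the 6 libraries, for Kcnj11 (-0.43), Cacna1a (-0.58), Cacnb2 (-0.50), Cacna2d1 (-0.91) and Kcnma1 (-1.07) scaled to library size, for Cacna2d1 in batch 1 (-0.19) and without the filter (-0.076), and for Kcnma1 with the culture as a block (-0.093), by limma (-0.10 at either pseudocount), without the filter (-0.10) and with 1 culture left out (-0.056 to 0.46).

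The difference in the RNA ratio of Abcc8 over Kcnj11 (1.01) was 1.21 and 0.82 within the batches and 0.13 without the shallow libraries, none of them called, and that of Cacna1d over Cacna1c (-0.68) was -0.54, -0.82 and -0.89, none called. Within a batch, a single ratio at the smallest possible exact p could not pass after adjustment. The ratio of Abcc8 over Kcnj11 in RPFs turned in batch 2 (-0.016), and that of Cacnb3 over Cacnb2 turned in RNA without the shallow libraries (-1.67) and in RPFs in batch 1 (-0.23).

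Replicate numbers are shared between the concentrations and the samples were not treated as pairs, since not every pair had an r over 0.1 (r of same-numbered deviations -0.21 to 0.22 in RNA and 0.01 to 0.48 in RPFs, over 0.1 in 2 and 4 of 8 pairs, the 4 being all those of batch 1, with 1 and 6 of 8 samples closest to their own number). With a replicate block 1 channel gene was lower in RNA (Cacna1c was not called, -2.38, adjusted p = 0.0403), with 1906 genes lower and 2111 higher, 2 were lower in RPFs and 3 higher in TE, where Cacnb2 was not called (0.57, adjusted p = 0.276) and the value of Kcnma1 was -0.050. Cacnb3, with 0 to 33 RPF counts per library, was not tested in RPFs, and the RPF libraries of batch 2 held 363569 to 732164 counts.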
